A study of Mus musculus with 18 samples.

Results

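The 10 interleukin genes described here, Il10, Il24, Il22, Il17a, Il17f, Il21, Il4, Il5, Il13 and Il6, were taken by name as Il10 and the interleukins typical of helper T cell types, and were found by matching the Ensembl IDs of the count tables to mouse symbols. All 10 were present in all 3 tables, which together listed 53509 genes. RNA was sequenced from mouse double negative T cells (DNT cells), T cells without CD4 and CD8, which had been made from CD4+ T cells of wild type spleen and lymph node and were stimulated with antibodies to CD3 and CD28. The 18 libraries formed 3 sets of 6, each a table of its own, and each set addressed how an added purinergic ligand changes these cells within 6 h. In set 1 the cells received 400 µM ATPgs, an ATP analogue (WTATPgs), or no ligand (WT). In set 2 they received 400 µM adenosine (ADO) or no ligand (DNT). In set 3 all cells received 250 nM of an inhibitor of the adenosine receptor A2aR, and then 400 µM adenosine (RA) or none (R). Every group had 3 libraries. The labels give no sort, purity or pooling for the converted cells, and they do not state whether replicates are independent cultures or mice. The p-values below therefore reflect the spread among the sequenced libraries, which may be technical.

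Helper T cells are told apart by the interleukins they release. Il4, Il5 and Il13 belong to type 2 responses and are controlled by GATA3, Il17a, Il17f and Il22 belong to type 17 responses and depend on STAT3, and Il21 is made by follicular helper and type 17 cells. Il10 can be made by all of these cell types and by regulatory cells, and restrains inflammation through STAT3 in the cells that receive it. Adenosine raises cAMP through A2aR, which is coupled to Gs, and in T cells cAMP is best known for restraining cytokine production.

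The genes lie in 6 places of the mouse genome (GRCm38), given here with the strand of each gene. Il10 (ENSMUSG00000016529, chr1:131019845-131024974, plus strand) and Il24 (ENSMUSG00000026420, chr1:130882074-130887454, minus strand) are neighbours with 132 kb between them. Il17a (ENSMUSG00000025929, chr1:20730905-20734496, plus strand) and Il17f (ENSMUSG00000041872, chr1:20777146-20790617, minus strand) lie 42.6 kb apart. Il4 (ENSMUSG00000000869, chr11:53602982-53618669, minus strand) and Il13 (ENSMUSG00000020383, chr11:53631324-53634702, minus strand) lie 12.7 kb apart, and Il5 (ENSMUSG00000036117, chr11:53720794-53725106, plus strand) follows Il13 after 86.1 kb. Il21 (ENSMUSG00000027718, chr3:37222759-37232636, minus strand), Il22 (ENSMUSG00000074695, chr10:118204942-118210047, plus strand) and Il6 (ENSMUSG00000025746, chr5:30013114-30019981, plus strand) stand alone. Il22 has a near-identical copy, Iltifb, 79.6 kb away, to which the tables gave 0 to 50 counts per library, so some reads could have been split between them. The antisense genes Gm12214 over Il5 and Gm12534 over Il21 had 0 counts in every library.

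RefSeq promoter windows (GRCm38.p6, 250 bases before to 50 after a start site) were found for 8 of the 10 genes. The windows of the type 2 cluster, Il4, Il13 and Il5, and of Il6 are shown, each 5′ to 3′ on its gene's strand, because these 4 genes, like Il22, had the same library of set 1 far below the rest. Capitals mark 3 motifs on either strand, GGAAAA (an NFAT core), TGANTCA (an AP-1 site) and TGACG (the core of the cAMP response element).
Il4 promoter, chr11:53618616-53618915, minus strand: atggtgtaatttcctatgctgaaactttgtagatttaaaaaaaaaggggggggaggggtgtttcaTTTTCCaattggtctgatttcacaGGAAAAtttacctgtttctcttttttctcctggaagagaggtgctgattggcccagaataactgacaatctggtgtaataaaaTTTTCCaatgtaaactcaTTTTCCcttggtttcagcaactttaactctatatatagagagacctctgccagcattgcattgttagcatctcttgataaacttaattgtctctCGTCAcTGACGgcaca
Il13 promoter, chr11:53634653-53634952, minus strand: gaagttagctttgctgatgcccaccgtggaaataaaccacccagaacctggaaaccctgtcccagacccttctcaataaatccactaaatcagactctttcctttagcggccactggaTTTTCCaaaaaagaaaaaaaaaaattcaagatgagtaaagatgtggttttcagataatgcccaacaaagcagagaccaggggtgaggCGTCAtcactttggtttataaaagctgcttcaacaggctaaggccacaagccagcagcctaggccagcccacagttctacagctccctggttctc
Il5 promoter, chr11:53720544-53720843, plus strand: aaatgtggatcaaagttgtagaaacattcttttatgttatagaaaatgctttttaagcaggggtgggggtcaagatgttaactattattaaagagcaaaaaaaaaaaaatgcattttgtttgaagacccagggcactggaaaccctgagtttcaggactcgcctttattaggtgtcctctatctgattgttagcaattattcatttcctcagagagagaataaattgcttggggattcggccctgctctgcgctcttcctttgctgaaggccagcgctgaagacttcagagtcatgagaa
Il6 promoter, chr5:30012864-30013163, plus strand: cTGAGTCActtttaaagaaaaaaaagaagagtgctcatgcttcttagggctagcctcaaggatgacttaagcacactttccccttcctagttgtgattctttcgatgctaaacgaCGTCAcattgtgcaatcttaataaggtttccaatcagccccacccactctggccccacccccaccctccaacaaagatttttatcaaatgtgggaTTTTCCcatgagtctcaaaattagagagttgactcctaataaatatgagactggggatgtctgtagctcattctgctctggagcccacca
RefSeq had 2 windows for Il4. The one shown held GGAAAA 4 times and TGACG 2 times, and the other (chr11:53617289-53617588) held none of the 3 motifs. The Il13 window held GGAAAA and TGACG 1 time each and no TGANTCA. The Il5 window held none of the 3 motifs, nor did that of Il22, and the Il6 window held 1 of each. Of 32851 RefSeq windows of this length, 23.4% held GGAAAA, 7.81% held TGANTCA and 20.8% held TGACG. The full cAMP response element TGACGTCA, present in 1.79% of all windows, was in none of the 8 genes' windows. These matches describe the letters only.

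Total counts per library ran from 20156082 to 24331577. T cell markers were high in all libraries, with sums over 12 genes of 1850 to 3210 CPM (counts relative to the library total, with TMM scaling within a set), and Cd4, Cd8a and Cd8b1 together gave 6.38 to 26.7 CPM. Libraries differed in 3 ways that touch the interleukins. WTATPgs replicate 3 stood apart from replicates 1 and 2 (chi-square per gene of 25.3 and 25.4, against 1.65 between replicates 1 and 2). The R libraries differed among themselves more than any other group (43.9 to 210, against 3.88 to 6.82 in RA and 1.87 to 2.39 in WT, ADO and DNT). In set 3, ribosomal protein genes took 10.6% to 16.3% of counts and mitochondrially encoded genes 3.14% to 5.47%, against at most 5.52% and 2.19% in sets 1 and 2. R replicate 3 had the highest share of both.

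Measured per kilobase of exon, the scale on which genes can be compared, the dominant interleukin was the type 17 gene Il17a in sets 1 and 2 and Il10 in set 3. In set 1 Il17a averaged 2584 CPM per kb in WTATPgs and 2921 CPM per kb in WT. The next were Il13, with 330 and 477 CPM per kb in WTATPgs and WT, and Il22, with 207 and 400 CPM per kb. In set 2 Il17a was again first, at 248 CPM per kb in ADO and 275 CPM per kb in DNT, followed by Il13 at 92.7 CPM per kb in ADO and 119 CPM per kb in DNT. In set 3 Il10 averaged 209 CPM per kb in RA and 399 CPM per kb in R, with Il24 (208 CPM per kb in RA and 166 CPM per kb in R) and Il17a (199 CPM per kb in RA and 176 CPM per kb in R) next. The lowest in both of these sets was Il21, at 0.38 CPM per kb in ADO, 0.37 CPM per kb in DNT, 0.38 CPM per kb in RA and 0.38 CPM per kb in R. All 10 genes passed the filter on low counts in each set.

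From low to high, the group means of Il10 ran WTATPgs, ADO, WT, DNT, RA and R, with no overlap between neighbours, and those of Il24 ran WTATPgs, WT, ADO, DNT, R and RA, with overlap only between WTATPgs and WT. The order for Il22 was R, RA, ADO, DNT, WTATPgs and WT, with no overlap between neighbours. For Il17a it was R, RA, ADO, DNT, WTATPgs and WT, and R overlapped RA as WTATPgs overlapped WT. Il17f ran R, ADO, DNT, RA, WTATPgs and WT, with the 3 lowest groups overlapping in turn and the 2 highest overlapping. For Il21 the DNT, R, ADO and RA groups all overlapped their neighbours and lay below WT and WTATPgs. Il4 (DNT, R, ADO, RA, WT, WTATPgs) also overlapped throughout except between RA and WT, and Il5 (R, ADO, RA, DNT, WTATPgs, WT) throughout except between R and ADO. Il13 ran ADO, DNT, RA, R, WTATPgs and WT, with RA, R and WTATPgs overlapping in turn, and Il6 ran ADO, RA, DNT, R, WTATPgs and WT, with R, WTATPgs and WT overlapping in turn. The sets were separate tables, and with TMM factors over all 18 libraries the levels moved by −0.22 to −0.18 (log2) in sets 1 and 2 and by 0.39 to 0.41 in set 3. The order then stayed as given for Il10 and Il24, and changed among ADO, DNT, RA and R for the other 8 genes.

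**Figure D1:**
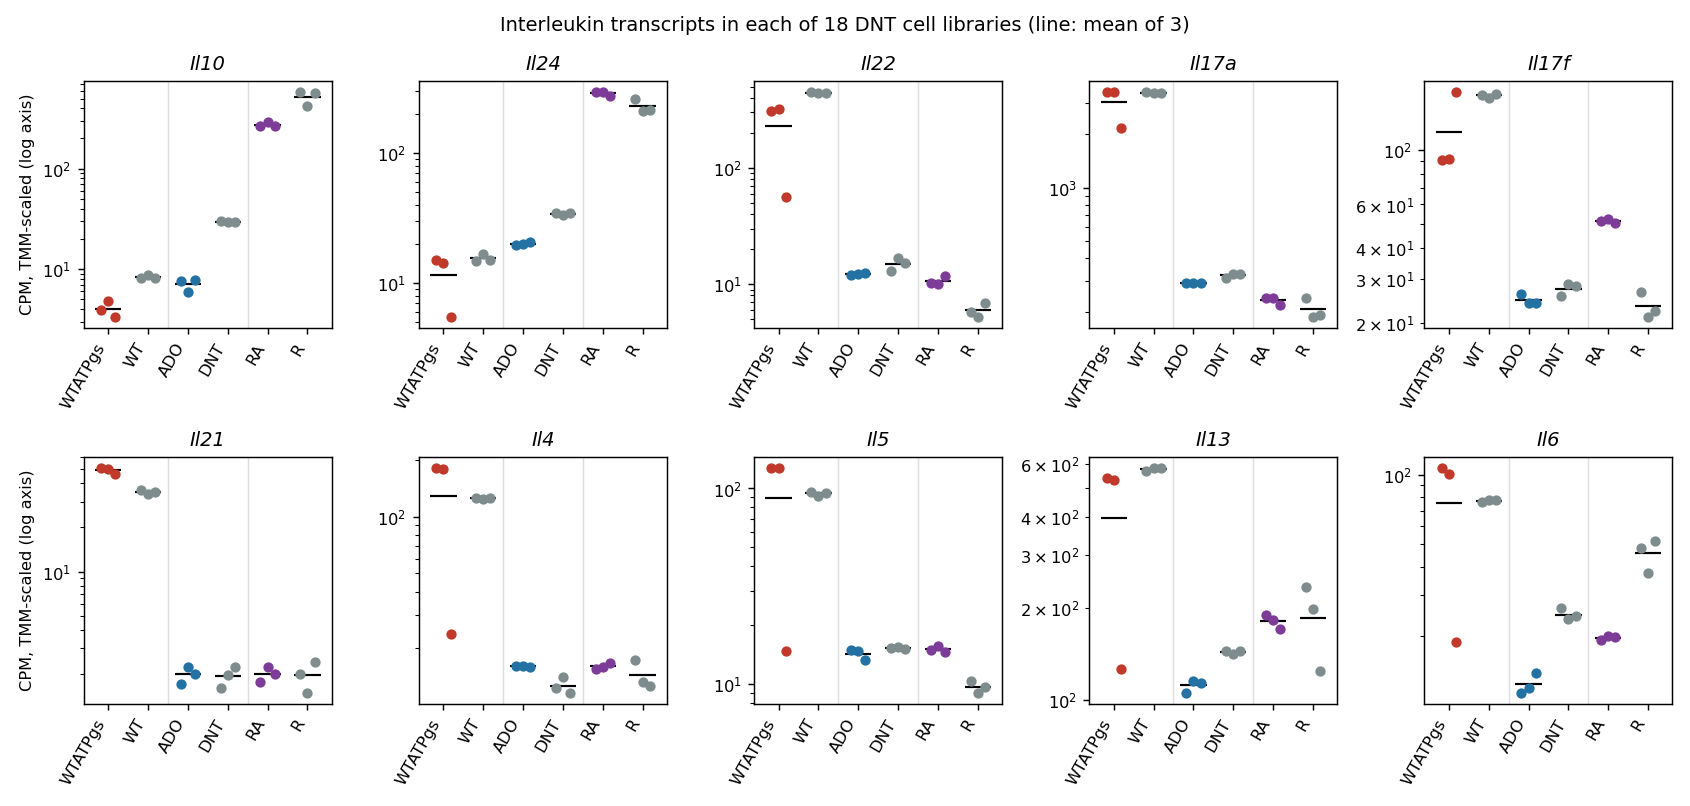
CPM (log axis) of each interleukin in the 3 libraries of each group, with a line at the group mean. Il10 and Il24 are highest in RA and R, the other 8 genes are highest in WTATPgs and WT, and WTATPgs replicate 3 (the third red point) lies far below replicates 1 and 2 for Il22, Il4, Il5, Il13 and Il6.

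With ATPgs, Il10 fell and Il21 rose, and the other 8 interleukins did not pass the test (edgeR's quasi-likelihood test with Benjamini-Hochberg adjustment over all genes, threshold 0.05, here and below; fold changes are log2 ± SE with n = 3 libraries per group). Across all genes 37.1% passed, 17.7% higher and 19.4% lower, against 1 higher and 1 lower of 10 here. Scaled to library size only, 58.1% of all calls were higher, against 47.7% with TMM factors. The median log2 fold change of the 10 genes was −0.298, and that of all 15124 genes tested was −0.000615.

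Il10, the anti-inflammatory cytokine, had 3.94, 4.84 and 3.33 CPM in WTATPgs replicates 1 to 3, against 8.07, 8.69 and 8.22 CPM in WT. Every ATPgs library lay below every WT library, on 82 to 111 counts per library in WTATPgs and 175 to 189 in WT. The log2 fold change was −1.05 ± 0.15 (adjusted p = 0.000951), and it passed in all 14 alternative fits, with adjusted p from 4.95e-09 to 0.00789. In bulk RNA such as this, fewer cells that make a transcript and less of it per cell cannot be told apart. Il21, a cytokine that acts on B cells and T cells through STAT3, had 50.9, 50.03 and 46.6 CPM in WTATPgs, against 35.8, 34.04 and 35.04 CPM in WT. Its ATPgs libraries all lay above the WT libraries, with a log2 fold change of 0.49 ± 0.05 (adjusted p = 0.000232), and it also passed in 14 of 14 alternatives.

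The 3 type 2 genes shared a low value in WTATPgs replicate 3, and differed in how replicates 1 and 2 lay against WT. Il4, the cytokine that directs type 2 differentiation and antibody class switching to IgE, had 182, 180 and 23.7 CPM in WTATPgs, against 126, 124 and 126 CPM in WT. Il5, the growth factor of eosinophils, had 127, 127 and 14.8 CPM in WTATPgs, against 96.0, 91.8 and 95.3 CPM in WT. Both genes had ATPgs replicates 1 and 2 above all WT libraries and replicate 3 far below them. Il13, which acts on epithelium and smooth muscle, had 538, 528 and 127 CPM in WTATPgs, against 566, 580 and 579 CPM in WT. For Il13 all ATPgs libraries lay below WT, replicates 1 and 2 only slightly. The log2 fold changes were 0.04 ± 0.79 for Il4 (adjusted p = 0.979), −0.07 ± 0.82 for Il5 (adjusted p = 0.957) and −0.53 ± 0.60 for Il13 (adjusted p = 0.55).

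Il6, a cytokine of the acute phase response that also promotes type 17 differentiation, showed the same split, with 107, 101 and 18.8 CPM in WTATPgs, against 76.5, 77.5 and 77.8 CPM in WT (−0.04 ± 0.68, adjusted p = 0.975). Il22, which acts on epithelial barriers, had 310, 323 and 56.4 CPM in WTATPgs, against 448, 444 and 439 CPM in WT. All Il22 values with ATPgs were below WT, but with an interval from −2.85 to 0.95 around a log2 fold change of −0.95 the change did not pass (adjusted p = 0.363). Il24, an IL-10 family cytokine made in mice by type 2 cells among others, had 15.1, 14.2 and 5.49 CPM in WTATPgs, against 14.8, 16.6 and 15.0 CPM in WT (−0.42 ± 0.38, adjusted p = 0.44). Its groups overlapped through replicate 1 alone.

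Il17a and Il17f, which encode partner cytokines that recruit neutrophils, differed in which library stood out. Il17a had 3451, 3443 and 2184 CPM in WTATPgs, against 3448, 3416 and 3398 CPM in WT (−0.18 ± 0.19, adjusted p = 0.536). Replicates 1 and 2 were level with WT and replicate 3 was lower. Il17f had 90.7, 91.7 and 170 CPM in WTATPgs, against 167, 161 and 168 CPM in WT (−0.49 ± 0.28, adjusted p = 0.25). Here replicates 1 and 2 were well below WT, and replicate 3 was slightly above every WT library.

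**Figure D2:**
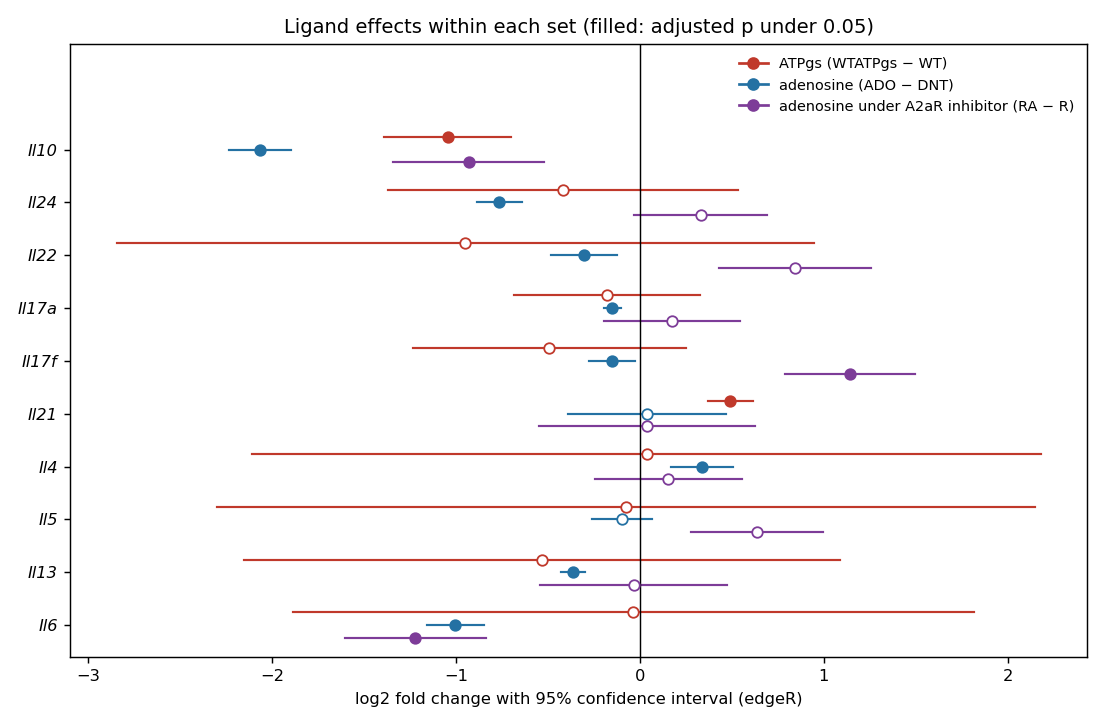
Log2 fold change with its 95% confidence interval for each interleukin in the 3 ligand comparisons, filled where adjusted p was under 0.05. Il10 lies left of 0 in all 3 comparisons, Il6 in the 2 with adenosine, and the ATPgs intervals of Il4, Il5, Il13, Il22 and Il6 are the widest.

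For 6 of the 10 genes, Il4, Il5, Il6, Il13, Il17f and Il22, whether the ATPgs effect passed turned on 1 library. Relative to the mean of replicates 1 and 2, replicate 3 was lower by log2 ratios of −3.07 for Il5, −2.91 for Il4, −2.48 for Il22, −2.44 for Il6 and −2.07 for Il13. Among 15123 genes, 0.0661% were as low or lower than Il5 on this measure and 0.622% as low or lower than Il13, and 3.51% of genes were at least 2-fold lower. Il17f went the other way, at 0.90, with 0.727% of genes as high or higher. Il10 (−0.35) and Il21 (−0.11) differed little between the ATPgs libraries.

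Without WTATPgs replicate 3, 53.8% of all genes passed, and 8 of the 10 interleukins did. Il21 (0.52 ± 0.05), Il4 (0.53 ± 0.03), Il5 (0.43 ± 0.03) and Il6 (0.42 ± 0.04) were then higher with ATPgs. Il10 (−0.93 ± 0.13), Il17f (−0.86 ± 0.03), Il22 (−0.49 ± 0.02) and Il13 (−0.11 ± 0.02) were lower. Il24 (−0.08 ± 0.09, adjusted p = 0.441) and Il17a (0.01 ± 0.01, adjusted p = 0.75) did not pass. Which of the ATPgs libraries is typical cannot be told from 3, and leaving out replicate 1 or 2 gave calls for Il10 and Il21 only.

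**Figure D3:**
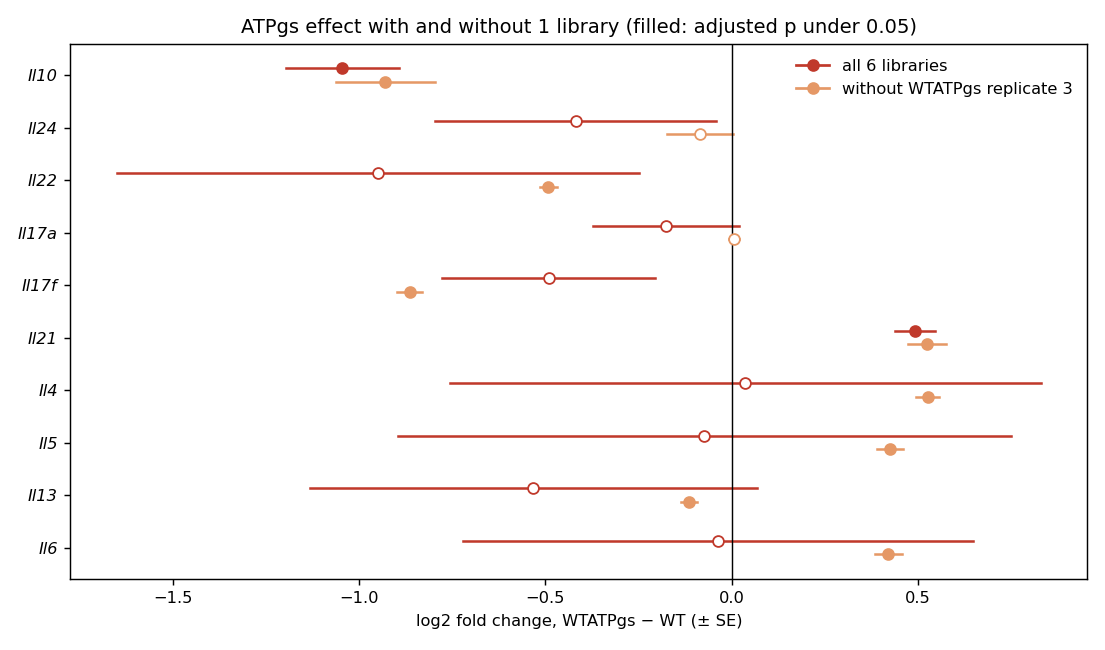
Log2 fold change ± SE with ATPgs from all 6 libraries of set 1 and without WTATPgs replicate 3, filled where adjusted p was under 0.05. Il10 and Il21 keep their place, while Il4, Il5 and Il6 move from near 0 to 0.42 to 0.53.

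Transcripts of mast cells and basophils, innate cells that also make IL-4, IL-13 and IL-6, moved with the same library. All 8 markers on the list were detected in set 1, with summed levels of 1070, 1070 and 288 CPM in WTATPgs and 584, 572 and 568 CPM in WT. The mast cell protease gene Cpa3 had 450, 448 and 115 CPM in WTATPgs, against 277, 268 and 269 CPM in WT. Hdc, the histamine-forming enzyme, had 180, 187 and 25.4 CPM in WTATPgs, against 46.2, 43.4 and 44.7 CPM in WT. The chains of the high affinity IgE receptor were also detected, Fcer1a at 65.2, 65.3 and 16.2 CPM in WTATPgs against 53.9, 52.7 and 49.2 CPM in WT, and Ms4a2 at 72.3, 67.3 and 8.70 CPM in WTATPgs against 37.2, 37.4 and 38.2 CPM in WT. With all libraries 0 of the 8 markers passed in either direction, and without WTATPgs replicate 3, 7 rose and 0 fell. Over all genes 5612 of 15124 passed with all libraries, and 8381 passed without that one. The part of such cells in the interleukin levels of set 1 was not tested.

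Markers of macrophages and related cells and of B cells had lower sums and were also lower in WTATPgs replicate 3 than in replicates 1 and 2. The 14 macrophage, monocyte and dendritic cell markers summed to 132, 134 and 48.8 CPM in WTATPgs and 37.6, 39.1 and 40.2 CPM in WT, with Cd209a at 0 in both groups, and 6 of 11 tested rose and 1 fell (10 and 1 without WTATPgs replicate 3, and 1 and 1 of 12 without any 1 of the WT libraries). The 8 B cell markers summed to 20.8, 22.7 and 4.88 CPM in WTATPgs and 8.67, 8.28 and 8.35 CPM in WT, with 1 higher and 0 lower, and 8 of 8 higher without WTATPgs replicate 3. The NK and innate lymphoid cell list and the T cell list did not have this drop. The 9 NK and innate lymphoid cell markers summed to 616 to 704 CPM in WTATPgs and 572 to 587 CPM in WT, with 1 higher and 2 lower (4 and 4 without WTATPgs replicate 3). Of 12 T cell markers, 0 rose and 3 fell (1 and 8 without WTATPgs replicate 3), with sums of 1850 to 1920 CPM in WTATPgs and 1990 to 2030 CPM in WT. Cd4, Cd8a and Cd8b1 summed to 6.38 to 11.9 CPM in WTATPgs and 21.9 to 24.9 CPM in WT, and 2 of the 3 fell (1 without WT replicate 2 or 3). These counts stand beside 17.7% of all genes higher and 19.4% lower with ATPgs. Over all genes 8381 passed without WTATPgs replicate 3, against 5612 with all libraries. The part of these cells in the interleukin results was not tested.

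**Figure D4:**
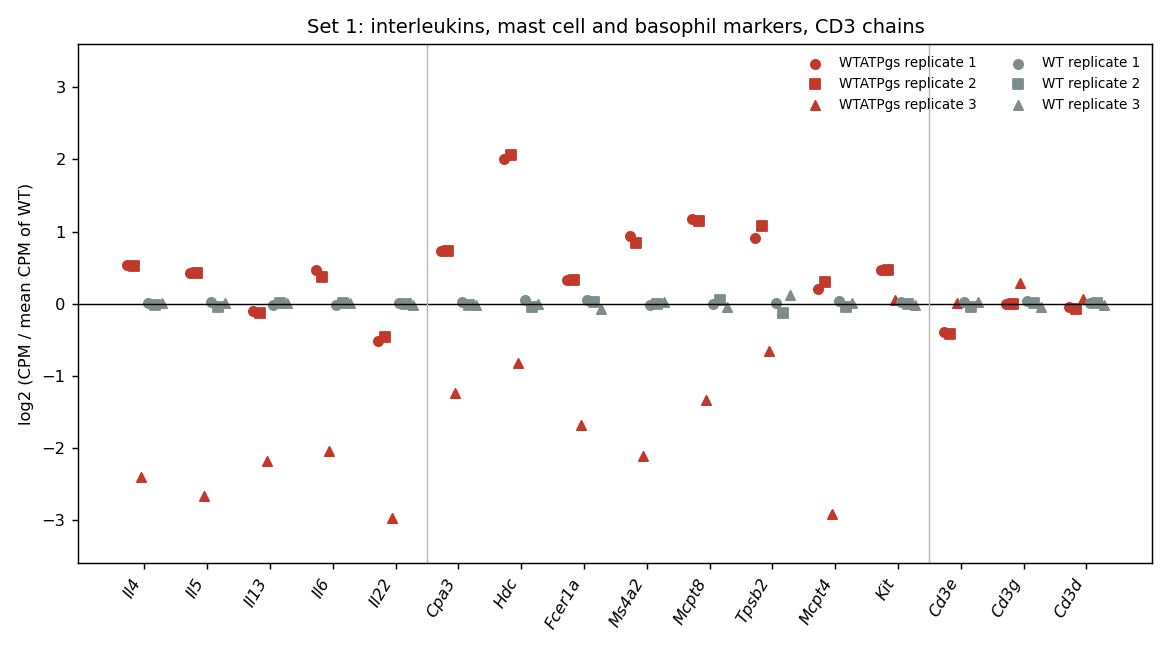
Log2 of CPM over the WT mean in the 6 libraries of set 1 for 5 interleukins, 8 mast cell and basophil markers and 3 CD3 chain genes. WTATPgs replicate 3 (red triangles) lies below WT for all 5 interleukins and for 7 of the 8 markers, Kit being the exception, and is not below replicates 1 and 2 for the CD3 genes.

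With adenosine, Il10 fell to 0.239 of its level without ligand, Il6 to 0.499, and in all 7 of the 10 interleukins fell, 1 rose and 2 did not pass. Across all genes 50.2% passed in set 2, where replicates were closest, 25.5% higher and 24.6% lower. The median log2 fold change was −0.227 over the 10 genes and 0.00222 over all 14512 genes tested.

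Il10 had 7.57, 5.92 and 7.75 CPM in ADO, against 30.4, 29.1 and 29.5 CPM in DNT. The groups lay far apart, and the log2 fold change of −2.07 ± 0.08 (adjusted p = 1.43e-26) passed in all 14 alternatives. Il24 had 19.6, 20.03 and 20.7 CPM in ADO, against 34.6, 33.3 and 34.6 CPM in DNT (−0.76 ± 0.06, adjusted p = 1.83e-15), and it too passed in all 14. Il22, the third IL-10 family gene, had 11.9, 12.1 and 12.4 CPM in ADO, against 12.99, 16.8 and 15.3 CPM in DNT. Its groups did not overlap but came close, and its log2 fold change was −0.30 ± 0.09 (adjusted p = 0.00382).

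Il6 had 11.4, 11.97 and 13.8 CPM in ADO, against 26.4, 23.6 and 24.3 CPM in DNT. Its groups were well apart (−1.003 ± 0.08, adjusted p = 8.54e-16).

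The type 17 pair fell only slightly. Il17a had 291 CPM in each ADO library, against 313, 327 and 328 CPM in DNT. These close replicates separated a log2 fold change of −0.15 ± 0.02 (adjusted p = 2.8e-07). Il17f had 26.04, 23.98 and 23.99 CPM in ADO, against 25.6, 28.7 and 28.1 CPM in DNT, so that 1 ADO library lay within the DNT range. Its change of −0.15 ± 0.06 passed narrowly (adjusted p = 0.0402) and in 5 of 14 alternatives, and was lost without ADO replicate 2 or 3 or DNT replicate 2 or 3 (adjusted p from 0.12 to 0.162 in these fits, and from 0.0151 to 0.673 over all alternatives).

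The type 2 genes split. Il13 had 106, 115 and 114 CPM in ADO, against 144, 141 and 145 CPM in DNT, with the groups apart (−0.36 ± 0.03, adjusted p = 6.82e-14). Il4 had 16.0, 16.0 and 15.9 CPM in ADO, against 12.3, 14.0 and 11.6 CPM in DNT. It was the 1 interleukin of the 10 that rose with adenosine (0.34 ± 0.08, adjusted p = 0.000619). Il5 had 14.9, 14.6 and 13.3 CPM in ADO, against 15.2, 15.4 and 15.1 CPM in DNT, and its change of −0.10 ± 0.08 did not pass (adjusted p = 0.345, 95% interval −0.26 to 0.07).

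Il21 was too low in set 2 to judge a modest change, with 39, 51 and 46 counts in ADO and 38, 43 and 50 counts in DNT, or 1.73 to 2.24 CPM in ADO and 1.62 to 2.23 CPM in DNT. Its 95% interval ran from −0.39 to 0.47 around 0.04 (adjusted p = 0.898). Changes smaller than this were not detectable at this depth.

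These calls used the spread of set 2 alone, where the common biological coefficient of variation was 2.74%, against 10.6% in set 1 and 19.6% in set 3. In a single fit of all 18 libraries Il10 (adjusted p = 5.52e-08) and Il24 (adjusted p = 0.0217) passed, and Il6, Il13, Il22, Il17a, Il17f and Il4 did not (adjusted p from 0.0962 to 0.705). The Il22 call was also lost without DNT replicate 2 (adjusted p = 0.0641, and from 0.000453 to 0.705 over all 14).

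Of the markers of other cells in set 2, the 8 of mast cells and basophils summed to 136 to 139 CPM in ADO and 76.5 to 77.8 CPM in DNT, 2 of the 4 tested being higher and 0 lower. Most of that sum was Kit (127 to 130 CPM in ADO and 69.2 to 70.7 CPM in DNT), Mcpt4 was at 0 in both groups, and Fcer1a and Ms4a2 were below 0.24 CPM in every library. Macrophage, monocyte and dendritic cell markers summed to 40.9 to 44.1 CPM in ADO and 27.5 to 28.0 CPM in DNT, with 5 of 7 tested higher and 1 lower (0 lower without ADO replicate 1 or 3 or DNT replicate 3) and Cd209a at 0. B cell markers summed to 1.97 to 2.69 CPM in ADO and 1.65 to 2.55 CPM in DNT, with Pax5 at 0 in DNT and 0 of 2 tested passing in either direction. NK and innate lymphoid cell markers summed to 464 to 486 CPM in ADO and 507 to 511 CPM in DNT, 2 of 8 higher and 4 lower. T cell markers summed to 2200 to 2230 CPM in ADO and 2020 to 2050 CPM in DNT, 8 of 12 higher and 2 lower, and of Cd4, Cd8a and Cd8b1 1 rose and 2 fell, with sums of 17.8 to 20.7 CPM in ADO and 25.3 to 26.7 CPM in DNT. Without ADO replicate 2 or 3 or DNT replicate 2 or 3, 0 of the 3 rose, and without ADO replicate 3 or DNT replicate 2 only 1 fell. These counts stand beside 25.5% of all genes higher and 24.6% lower in set 2. The part of these cells in the changes with adenosine was not tested.

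With adenosine in the presence of the A2aR inhibitor, Il10 and Il6 fell and Il17f rose, and the other 7 did not pass. In set 3 only 1.14% of all genes passed, 0.287% higher and 0.855% lower, and the interleukins gave 1 higher and 2 lower of 10. Their median log2 fold change was 0.164, and that of all 12873 genes tested was −0.0356. Scaling to library size only moved the median of all genes in this comparison by over 0.1, to 0.0926.

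Il10 had 266, 292 and 265 CPM in RA, against 577, 423 and 570 CPM in R. All RA libraries lay below all R libraries, on at least 5692 counts per library, and the log2 fold change was −0.93 ± 0.18. The call was close to the threshold (adjusted p = 0.0445) and was lost in 7 of 14 alternatives, among them leaving out any RA library or R replicate 1 (adjusted p from 0.211 to 0.31), with adjusted p from 0.000123 to 0.31 over all of them. Its direction held in every alternative, at −0.79 with scaling to library size only, and between −1.08 and −0.86 with 1 library left out.

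Il6 had 19.2, 19.95 and 19.9 CPM in RA, against 48.3, 37.7 and 51.9 CPM in R (−1.22 ± 0.17, adjusted p = 0.00818). Il17f had 51.7, 52.6 and 50.3 CPM in RA, against 26.5, 21.1 and 22.3 CPM in R (1.15 ± 0.16, adjusted p = 0.00739). Both pairs of groups were well separated. The Il6 call was lost without any 1 of the RA libraries or R replicate 1 (adjusted p from 0.0767 to 0.091, and from 7.91e-08 to 0.091 over all 14 alternatives). The Il17f call was lost without any 1 of the RA libraries (adjusted p from 0.0756 to 0.0824, and from 1.74e-09 to 0.0824 over all 14).

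Il22 had 10.3, 10.1 and 11.7 CPM in RA, against 5.82, 5.23 and 6.91 CPM in R, and Il5 had 14.9, 15.5 and 14.5 CPM in RA, against 10.3, 8.997 and 9.62 CPM in R. For both genes the RA libraries lay above all R libraries, but neither difference passed (Il22 0.84 ± 0.19, adjusted p = 0.0677, and Il5 0.64 ± 0.16, adjusted p = 0.108). Without R replicate 3, 1719 genes passed, against 147 with it, Il22 with adjusted p = 0.00263 and Il5 with adjusted p = 0.0147 among them. Il24 had 294, 294 and 277 CPM in RA, against 262, 211 and 215 CPM in R (0.33 ± 0.16, adjusted p = 0.457). Its groups did not overlap either.

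The other 4 genes overlapped between the groups. Il17a had 239, 240 and 220 CPM in RA, against 240, 187 and 193 CPM in R (0.17 ± 0.17, adjusted p = 0.776). Il4 had 15.5, 15.8 and 16.7 CPM in RA, against 17.3, 13.3 and 12.6 CPM in R (0.16 ± 0.18, adjusted p = 0.822). Il13 had 191, 184 and 171 CPM in RA, against 235, 200 and 124 CPM in R (−0.03 ± 0.23, adjusted p = 0.975), R replicate 3 being the lowest. Il21 stayed at 1.78 to 2.23 CPM in RA and 1.5 to 2.42 CPM in R, on 37 to 51 counts per library, and its 95% interval from −0.55 to 0.63 leaves a modest change undetectable at this depth.

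Markers of other cells passed in set 3 only among those of NK and innate lymphoid cells (0 higher and 1 lower of 9 tested). Over all genes 147 of 12873 passed with all libraries, and 1719 passed without R replicate 3. Without that library the NK and innate lymphoid cell markers gave 1 higher and 2 lower, and the mast cell and basophil markers 0 higher and 2 lower of 6. The myeloid markers then gave 1 higher of 6, and Cd4, Cd8a and Cd8b1 1 lower. Mast cell and basophil markers summed to 38.1 to 42.4 CPM in RA and 51.0 to 61.0 CPM in R. Macrophage, monocyte and dendritic cell markers summed to 48.7 to 50.1 CPM in RA and 40.1 to 53.6 CPM in R, with Cd209a at 0 in both. B cell markers summed to 0.796 to 1.14 CPM in RA and 1.05 to 2.01 CPM in R, with 5 of 8 at 0 in RA and 4 of 8 at 0 in R. NK and innate lymphoid markers summed to 309 to 322 CPM in RA and 312 to 381 CPM in R. T cell markers summed to 2310 to 2500 CPM in RA and 2180 to 3210 CPM in R, and Cd4, Cd8a and Cd8b1 to 8.99 to 9.55 CPM in RA and 9.21 to 11.5 CPM in R.

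The adenosine effect was compared with and without the inhibitor in a fit of the 12 libraries of sets 2 and 3, in which the inhibitor and the set cannot be told apart. The difference passed for 5 of the 10 genes, and in each the effect with the inhibitor was the more positive. Across all genes 4.05% passed, 0.909% more positive and 3.14% more negative. The median difference was 0.521 over the 10 genes and −0.06 over all 14965 genes tested. For Il10 the difference was 1.11 ± 0.20 (adjusted p = 0.00918), its log2 fold change being −0.93 with the inhibitor and −2.07 without. For Il24 it was 1.08 ± 0.13 (adjusted p = 0.000632), and for Il22 1.13 ± 0.20 (adjusted p = 0.00859), both of which fell with adenosine alone and had positive fold changes that did not pass with the inhibitor. Il17f differed by 1.28 ± 0.14 (adjusted p = 0.000279) and Il5 by 0.72 ± 0.14 (adjusted p = 0.0133). Il24 and Il17f passed in all 20 alternatives, Il10 and Il22 in 19 and Il5 in 17. The highest adjusted p over these was 0.0629 for Il10, 0.286 for Il22 and 0.594 for Il5. Without ADO replicate 3 the Il5 difference was lost (adjusted p = 0.0551). The fit of all 18 libraries and the replicate block each kept 3 interleukins. Il6 did not differ detectably, at −0.24 ± 0.19 (adjusted p = 0.589, 95% interval −0.66 to 0.17), and Il4 (−0.20 ± 0.17), Il13 (0.32 ± 0.21), Il17a (0.31 ± 0.14) and Il21 (−0.01 ± 0.32) did not pass.

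**Figure D5:**
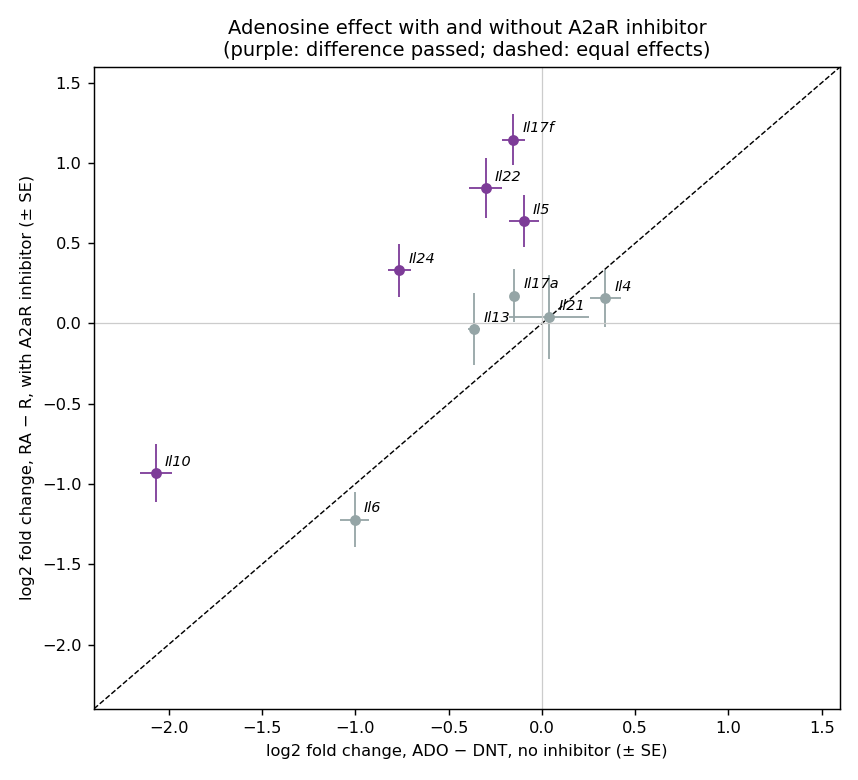
Log2 fold change with adenosine under the inhibitor (vertical, RA minus R) against that without it (horizontal, ADO minus DNT), ± SE, with a dashed line where both are equal. Il10, Il24, Il22, Il17f and Il5 (purple, difference passed) lie above the line, Il10 with both values negative, and Il6 lies slightly below it.

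The ATPgs effect was set against the adenosine effect in the same way over sets 1 and 2, sharing the ADO and DNT libraries with the inhibitor comparison. Of the 10 genes 1 passed, Il10, with 17.3% of all genes passing, 8.13% more positive and 9.12% more negative with ATPgs. The fall of Il10 was smaller with ATPgs, −1.05 against −2.07, a difference of 1.02 ± 0.17 (adjusted p = 0.000593) that passed in all 20 alternatives. Il21 differed by 0.46 ± 0.16 (adjusted p = 0.0632), and for Il4, Il5, Il6, Il13 and Il22 the SE was 0.62 or more. The median difference was −0.00391 over the 10 genes and −0.0111 over all 15788 genes tested. Without WTATPgs replicate 3, when 33.0% of all genes passed, 7 of the 10 were more positive with ATPgs, among them Il6 (1.42 ± 0.08), Il24 (0.68 ± 0.10) and Il5 (0.52 ± 0.08), and Il17f (−0.72 ± 0.07) and Il22 (−0.20 ± 0.07) were more negative. Without DNT replicate 1, 2 of the 10 were more positive.

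Other genes of the same families and pathways were read from lists. Those named here came mostly from the 4 smallest p-values in a comparison, not all of which are given. The list of type 2 and common gamma chain ligands also held Il3, Csf2 and Tslp, which are neither, and its counts include them. On this list Il2, the T cell growth factor, fell in all 3 comparisons. Its log2 fold changes were −2.73 ± 0.04 with ATPgs, −2.87 ± 0.06 with adenosine and −2.70 ± 0.24 with adenosine under the inhibitor. Csf2, which encodes GM-CSF, fell likewise (−2.16 ± 0.23 with ATPgs, −1.77 ± 0.03 with adenosine and −1.37 ± 0.23 under the inhibitor). Under the inhibitor the Il2 call was kept in all 14 alternatives, and the Csf2 call was lost without any 1 of the RA libraries or R replicate 1 (adjusted p from 0.12 to 0.199, and from 6.88e-08 to 0.199 over all 14). With adenosine Il9, a growth factor of mast cells and T cells, fell by 1.73 ± 0.27. Il3, a growth factor of blood cell precursors and mast cells, rose by 0.45 ± 0.07. A single fit of all 18 libraries kept neither adenosine call (adjusted p = 0.125 for Il9 and 0.298 for Il3). With ATPgs Il9 also fell (−2.10 ± 0.40, adjusted p = 0.00657), a call kept in all 14 alternatives. Members counted above included, this list had 1 higher and 3 lower of 9 tested with ATPgs, 2 higher and 4 lower of 8 with adenosine, and 0 higher and 2 lower of 7 with adenosine under the inhibitor. Without WTATPgs replicate 3 it had 4 higher and 4 lower with ATPgs, and without R replicate 3 it had 2 higher and 2 lower under the inhibitor. Over all genes, leaving out these libraries gave 8381 calls in place of 5612, and 1719 in place of 147. With all libraries 37.1%, 50.2% and 1.14% of all genes passed in the 3 comparisons. The IL-6 family list had 2 higher and 2 lower of 8, 1 higher and 3 lower of 8, and 0 higher and 1 lower of 6, in the same order. Its ATPgs counts were 5 and 2 of 9 without WTATPgs replicate 3, with 1 higher in place of 2 without WTATPgs replicate 2 or any 1 of the WT libraries. Its adenosine rise was lost without ADO replicate 3. Under the inhibitor 0 passed without any 1 of the RA libraries or R replicate 1, and 1 rose and 3 fell without R replicate 3. In it Lif, a cytokine of stem cell and stromal signalling, fell (−1.05 ± 0.13 with ATPgs and −0.42 ± 0.02 with adenosine). With ATPgs Clcf1 fell (−0.75 ± 0.09, kept in all 14 alternatives). Ebi3 rose with ATPgs (0.64 ± 0.19), a call kept in 7 of 14. Osm fell by 0.79 ± 0.05 with adenosine, a call lost in the fit of all 18 libraries (adjusted p = 0.0786). Il31, a cytokine of itch, rose by 1.16 ± 0.24 with ATPgs and by 1.06 ± 0.35 with adenosine. Its adenosine call had adjusted p = 0.0641 without ADO replicate 3, and from 0.0067 to 0.0641 over its 13 alternatives. In the IL-10 family 0 rose and 1 fell of 4, 0 rose and 3 fell of 3, and 0 rose and 1 fell of 4, and in the IL-17 family 0 and 0 of 3, 0 and 2 of 4, and 1 and 0 of 3, all called genes being among the 10, whose values without single libraries are given above. Without WTATPgs replicate 3 the IL-17 family had 1 higher and 1 lower of 3 with ATPgs.

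Of the transcription factor genes that act on these interleukin loci, 7 of 25 rose and 11 fell with ATPgs (10 and 12 without WTATPgs replicate 3), where 17.7% of all genes rose and 19.4% fell. With adenosine 5 rose and 17 fell, where 25.5% of all genes rose and 24.6% fell. Stat3, the factor downstream of IL-6, IL-10 and IL-21, rose by 1.02 ± 0.05 with ATPgs and by 0.98 ± 0.02 with adenosine, and Rora, which acts in type 17 cells, rose by 1.05 ± 0.06 with ATPgs and by 0.96 ± 0.05 with adenosine. Irf4, needed for type 2 and type 17 programmes, fell (−0.74 ± 0.03 with ATPgs and −0.93 ± 0.02 with adenosine), as did Stat5a, downstream of IL-2 (−0.93 ± 0.03 and −0.50 ± 0.02). Rbpj, the nuclear partner of Notch, fell by 0.45 ± 0.02 with adenosine. Among factors known for acting on Il10, Maf (−0.37 ± 0.10) and Prdm1 (−0.56 ± 0.06) fell with adenosine. With ATPgs neither Maf (0.05 ± 0.26, adjusted p = 0.903) nor Prdm1 (0.61 ± 0.20, adjusted p = 0.0636) passed. Of the 25 listed factors 17 fell with adenosine, as Il10 did, Irf4 among them, and others did not fall. With adenosine Stat3 rose, as given above, and Nfil3 (−0.07 ± 0.03, adjusted p = 0.0637) and Batf (0.03 ± 0.05, adjusted p = 0.663) did not pass. Nfil3 rose with ATPgs (0.57 ± 0.04), and Batf fell (−0.25 ± 0.05, lost in the fit of all 18 libraries with adjusted p = 0.206). Gata3 fell with adenosine (−0.28 ± 0.07) and did not pass with ATPgs (−0.29 ± 0.32). The adenosine calls of Maf and Gata3 were lost in the fit of all 18 libraries (adjusted p = 0.411 and 0.536). With adenosine under the inhibitor 1 of 25 rose, Rora (1.03 ± 0.17, adjusted p = 0.0172), and 0 fell. That call was lost with scaling to library size only, without any 1 of the RA libraries and without R replicate 1 (adjusted p from 0.0511 to 0.175, and from 1.67e-06 to 0.175 over all 14). Without R replicate 3, when 1719 genes passed in place of 147, 6 factors fell.

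Of receptors of the 10 interleukins, 5 of 11 tested rose and 3 fell with ATPgs, where 37.1% of all genes passed. With adenosine 3 of 10 rose and 3 fell, a share near the 50.2% of all genes, and under the inhibitor 0 of 10 passed in either direction (1 rose and 2 fell without R replicate 3). Without WT replicate 2, 3 of 14 rose and 2 fell with ATPgs, and without WT replicate 1 or 3, 4 and 2 of 14. With adenosine 2 rose without ADO replicate 2 and 2 fell without DNT replicate 1. Il4ra, the shared receptor chain of IL-4 and IL-13, rose by 0.51 ± 0.04 with ATPgs and fell by 0.32 ± 0.02 with adenosine, and Il21r rose by 0.21 ± 0.06 with ATPgs (lost without any 1 of the WT libraries, with adjusted p from 5.76e-05 to 0.23 over all 14 alternatives) and fell by 0.24 ± 0.02 with adenosine. The IL-10 receptor genes went apart with ATPgs, Il10ra being lower (−0.29 ± 0.08, lost without any 1 of the WT libraries, with adjusted p from 9.48e-05 to 0.0875 over all 14) and Il10rb higher (0.50 ± 0.08), and Il10ra did not pass with adenosine (−0.02 ± 0.03). Csf2rb, the common beta chain used by IL-5, rose by 1.04 ± 0.19 with adenosine, from 1.67 CPM in DNT to 3.45 CPM in ADO. The adenosine calls of Csf2rb and Il21r were lost in the fit of all 18 libraries (adjusted p = 0.273 and 0.182). Of targets of IL-10, IL-6 and IL-21 signalling, 4 of 11 tested rose and 2 fell with ATPgs (7 and 4 of 12 without WTATPgs replicate 3), 4 of 10 rose and 5 fell with adenosine, and 0 of 11 passed under the inhibitor (1 fell without R replicate 3). Socs3, the feedback inhibitor induced through STAT3, rose by 1.28 ± 0.09 with ATPgs and by 0.59 ± 0.06 with adenosine. Cish, induced through STAT5, fell (−0.19 ± 0.03 with ATPgs and −0.36 ± 0.03 with adenosine). Its call with ATPgs was lost in the fit of all 18 libraries (adjusted p = 0.124).

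Likeness to other genes was described by Pearson's r of log2 CPM across the 18 libraries after each set's mean was taken off, among 11083 genes, and the points share their set, depth and treatment. Il10 was most like Smyd3 (r = 0.97), Cd83 (r = 0.96), Pgap1, Pdgfb and Sphk1. Without WTATPgs replicate 3, r was 0.97 for both Smyd3 and Cd83. Il17f was most like Ssrp1 (r = 0.94 with and without that library), a histone chaperone gene, followed by Usp1, Dnajc3, Trap1 and Wdhd1. Il21 was most like Cd80 (r = 0.88 of 18 libraries, 0.87 of 17), Clk1, Pla1a, Hebp2 and Spdl1, and Il24 most like Cyp1b1 (r = 0.95 of 18, 0.93 of 17), Il17a, Csf1, Lgals3 and Slc39a10. For Il4, Il5, Il22, Il13 and Il17a the likeness to the closest match leaned on WTATPgs replicate 3, and for Il6, also low there, it did so less. Il4 and Il5 were each other's closest match (r = 0.95 of 18 libraries, 0.53 of 17), Il22 was most like Cnn3 (0.92 and 0.67) and Il13 most like Podxl (0.92 and 0.70). Il17a was most like Il24 (0.91 and 0.75), and Il6 most like Akr1c18 (0.95 and 0.90), then Ighm, Kcnk10, Il1rl1 and Cd74.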

How the data were processed

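RNA-seq was read from 3 deposited tables, each holding 6 libraries as whole-number counts for Ensembl gene IDs. Trizol was used to extract total RNA, and libraries followed an Illumina protocol, per the labels' protocols. The submitters' processing notes name HISAT2 2.1.0 and GRCm38. Which program counted reads, with which annotation, and whether strand was used is not given in the sources used here. Genes were matched by ID to GENCODE symbols of GRCm38, which held 99.72%, 99.643% and 99.643% of the IDs of the 3 tables. No column was left without a sample.

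Groups came from the sample titles. The 10 interleukins, the gene and marker lists and the motifs were chosen with earlier results of these data known. Named genes were every interleukin of the 10, genes among the 5 most like each, and genes among the 4 of each list with the smallest p. Others, such as Maf, Prdm1, Nfil3, Batf, Gata3 and the receptor chains, were chosen after their values were seen. The quasi-likelihood test of edgeR 4.0.16 (R 4.3.3, robust, two-sided) was applied to counts scaled by TMM, after filterByExpr had removed low genes. P-values were adjusted by Benjamini-Hochberg over every gene tested and read at 0.05. Each ligand was tested within its own set, and each difference between effects in a fit of 12 libraries. The SE is the log2 fold change divided by the square root of F. Log2 CPM used a prior count of 3, and ratios to other libraries an offset of 0.5 CPM. The tests were run on simulated counts first. Alternatives were DESeq2 1.42.0, limma-voom (limma 3.58.1), RLE factors, library size only, either no filter or one of 1 CPM in 3 or more libraries, a joint fit of the 18 libraries, a replicate block, and leaving out each library, which made 14 alternatives for a ligand effect and 20 for a difference. The gene lists, and each list gene that passed, were put through the same alternatives, and marker sums rescaled over all 18 libraries, after the data were seen. Figures were drawn with matplotlib 3.10.9 in Python 3.11.15.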

Additional observations from a re-analysis of the deposited data

Results flagged for a closer look

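The effects of adenosine with and without the A2aR inhibitor differed for 5 of the 10 interleukins by a test of the difference itself (edgeR, 3 libraries in each of 4 groups). The effect with the inhibitor minus that without it, in log2 units, was 1.113 for Il10, 1.2838 for Il17f, 0.7184 for Il5, 1.1315 for Il22 and 1.0785 for Il24. In the individual libraries Il17f was higher in RA than in R in 3 of 3 libraries each, and in ADO it lay within or below the DNT range. The inhibitor and the set cannot be told apart in these differences, and set 3 also had a higher share of ribosomal protein counts (10.6% to 16.3%, against 4.84% to 5.52% in sets 1 and 2), whose part was not tested.

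The effects of ATPgs and adenosine differed for Il10 by 1.0246, ATPgs minus adenosine, with Il10 lower in 3 of 3 libraries with either ligand. The tables differed in more than the ligand, as Il10 was at 8.33 CPM in WT and 29.7 CPM in DNT, both without ligand. With 3 libraries in a group, no statistical test for an outlying library was made.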

How the results depend on the processing

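Il10 kept its direction in every alternative of every comparison, and its calls with ATPgs and with adenosine alone were kept in all 14 each. Il21 with ATPgs was kept in all 14 as well.

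With ATPgs, Il6 was at 0.0174 with library size only, and Il4 at −0.46 with limma-voom. All 18 libraries in a single fit gave 3299 calls and 2 interleukins lower. With adenosine that fit gave 2309 calls, with 0 interleukins higher and 2 lower. Under the inhibitor, 1 interleukin was lower with RLE factors and with library size only. Calls numbered 73 with library size only, 485 with no filter, 533 with DESeq2 and 1778 with all 18 libraries, and 2 interleukins were higher with no filter and 3 with DESeq2. Il13 was at 0.058 with library size only, 0.017 with limma-voom and 0.0011 with all 18. For the difference with minus without inhibitor, calls numbered 240 with library size only, 1387 with DESeq2 and 1009 with all 18, where 3 interleukins passed. Its Il21 value was 0.0221 with RLE factors, 0.10 with library size only, 0.0086 with no filter, 0.0255 with DESeq2, 0.0339 with limma-voom and 0.0327 with all 18. For ATPgs minus adenosine, all 18 gave 302 calls, and Il5 was at −0.013 with no filter, −0.52 with limma-voom and −0.0028 with all 18. The causes were not tested.

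Same-numbered replicates did not deviate together (r from −0.205 to 0.051), not every library correlated best with its own number, and the numbers were not taken to pair libraries. With a replicate block, Il4 with ATPgs was at −0.34, and under the inhibitor Il13 was at 0.0131 and 1 interleukin was lower. For the difference with minus without inhibitor it gave 160 calls and 3 interleukins, and Il5 in ATPgs minus adenosine was at −0.33.

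With 1 library left out, ATPgs gave 1 to 4 interleukins higher and 1 to 4 lower, with Il6 from −0.37 to 0.42, Il17a from −0.27 to 0.006, Il4 from −0.30 to 0.53 and Il5 from −0.41 to 0.43. Il21 with adenosine ran from −0.0809 to 0.15. Under the inhibitor there were 36 to 1719 calls, 0 to 3 interleukins higher and 0 to 2 lower, Il13 from −0.26 to 0.17 and Il21 from −0.14 to 0.21. The lowest count was without RA replicate 1 and the highest without R replicate 3, and only without R replicate 2 (220) was it within 1.5 times the 147 reported. The difference with minus without inhibitor gave 280 to 3051 calls (without DNT replicate 1 and without R replicate 3), all but that without R replicate 1 (782) over 1.5 times away from 606, 4 to 5 interleukins higher and Il21 from −0.13 to 0.22. For ATPgs minus adenosine there were 1943 to 5367 calls, the highest without WTATPgs replicate 3, 1 to 7 interleukins higher and 0 to 2 lower, Il17a from −0.13 to 0.15, Il4 from −0.64 to 0.18, Il5 from −0.32 to 0.52 and Il13 from −0.45 to 0.24.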

Other observations

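The groups without ligand of the 3 sets, all stimulated through CD3 and CD28, held different interleukins, with no test because each set was a table of its own. WT, against DNT, had 29.5-fold more Il22, 10.6-fold more Il17a, 9.92-fold more Il4, 6.03-fold more Il17f, 4.01-fold more Il13 and 3.12-fold more Il6. Il21 averaged 34.95 CPM in WT and 1.95 CPM in DNT, and Il5 94.35 CPM in WT and 15.2 CPM in DNT, while in WT Il10 was at 0.281 and Il24 at 0.453 of their DNT level. R, which held the inhibitor, had 17.6-fold more Il10 and 6.71-fold more Il24 than DNT, and 0.398 of its Il22. With TMM factors over all 18 libraries the fold for Il10 in R over DNT was 26.3 and Il17a in R was at 0.953 of DNT in place of 0.641.

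The summed mast cell and basophil markers were at 568 to 584 CPM in WT, 51.0 to 61.0 CPM in R and 76.5 to 77.8 CPM in DNT. Most of the sum in DNT was Kit, at 69.2 to 70.7 CPM, against 16.2 to 32.9 CPM in R. Cpa3 was at 4.94 to 14.1 CPM in R and 1.07 to 1.23 CPM in DNT, and Mcpt8 at 15.6 to 22.7 CPM in R and 2.36 to 2.59 CPM in DNT. With TMM factors over all 18 libraries the sums of R, at 65.2 to 83.5 CPM, overlapped those of DNT, at 67.1 to 68.2 CPM, so no order of R and DNT is given. Their part in the interleukin levels was not tested.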
